A study of Mus musculus with 4 samples.

Results

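The 33 genes described here encode the machinery of glycolysis and the targets of oxygen sensing, and they were followed in single cells of mouse pancreatic ductal adenocarcinoma. They were taken by gene symbol from the 32285 features of the deposited matrices, and all 33 symbols were found. The 19 glycolysis genes are Hk1, Hk2, Gpi1, Pfkl, Pfkp, Pfkm, Aldoa, Aldoc, Tpi1, Gapdh, Pgk1, Pgam1, Eno1, Pkm and Ldha, the carriers Slc2a1 and Slc16a3, and the regulators Pfkfb3 and Pfkfb4. The 14 oxygen-sensing targets are Pdk1, Egln1, Egln3, Vegfa, Adm, Ndrg1, Ankrd37, Car9, P4ha1, P4ha2, Higd1a, Mif, Kdm3a and Angptl4. Values are counts of unique molecular identifiers (UMIs, one tag per captured RNA molecule), summed over the cells of a class in a library and given as CPM, the gene's count relative to all UMIs of that class and library.

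Tumour tissue was profiled in 4 droplet libraries, 1 per group. Control mice received PBS, PH mice paricalcitol (a vitamin D receptor agonist) with hydroxychloroquine (a lysosome inhibitor), and G mice gemcitabine (a nucleoside chemotherapy). GPH combined all of these according to its title, because its treatment label stops after gemcitabine at 60 mg per kg. Each library pooled tumour pieces of 3 animals, and the labels give no strain, age or tumour model. With 1 library per group, no difference has a replicate check and no test was possible. All intervals are exact 95% intervals that cover counting error only.

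Glucose enters cells through carriers such as Slc2a1, is trapped by hexokinases and is split by a chain of enzymes that ends in pyruvate, which Ldha converts to lactate for export by monocarboxylate carriers. Low oxygen stops the prolyl hydroxylases that mark hypoxia-inducible factor (HIF) for destruction. The stabilised factor then raises most glycolytic genes together with its own hydroxylases Egln1 and Egln3, the angiogenic factor Vegfa and the other oxygen-sensing targets. Pancreatic ductal tumours are known for dense stroma, poor perfusion and high glycolytic activity.

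After filtering, the libraries held 10074 control, 13977 PH, 12449 G and 4411 GPH cells, with median depths of 9635, 7862, 4610 and 20103 UMIs per cell. The vimentin-high class held 7840, 10668, 1905 and 1426 cells in the same order. The keratin-high class (Krt19 at 1000 CPM or more) held 1320 G and 2122 GPH cells, but 1 control and 5 PH cells, so it was compared between G and GPH only. Of its cells, 14 in G and 222 in GPH came from a low-depth cluster that was kept in, with a median of 965 UMIs in GPH. Macrophage or monocyte-like cells numbered 244, 352, 1671 and 46, T cell-like cells 379, 372, 2944 and 58, neutrophil-like cells 30, 22, 834 and 17, and fibroblast-like cells 60, 40, 32 and 34. Differences were computed where both libraries had at least 100 cells of a class. Barcodes shared between libraries were 0.240% to 0.471% of the smaller library. Nmt1, which has no part in these pathways, was picked from genes that earlier results of these data had named as splitting the libraries in pairs. Its transcripts were at 113 CPM in control and 101 CPM in GPH vimentin-high cells against 26.0 in PH and 26.4 in G. Control and GPH thus stood apart from PH and G in this preselected gene. Every comparison made here except GPH against control crosses that split, and its part in the results was not tested.

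Hk2 (ENSMUSG00000000628) lies on chromosome 6 from 82725025 to 82774454, Egln1 (ENSMUSG00000031987) on chromosome 8 from 124908587 to 124949324 and Angptl4 (ENSMUSG00000002289) on chromosome 17 from 33773750 to 33781830, all on the minus strand of mm10. The classes are described by markers, some of which also defined them. Summed CPM of 10 ductal markers was 1550 to 1976 in vimentin-high cells, 12248 in G keratin-high cells and 16559 in those of GPH. Cdkn2a, a cell cycle inhibitor gene, was at 832 to 1224 CPM in vimentin-high cells, and Xist, which immune cells of these libraries carried at over 400 CPM, was at 0.509 to 8.97 CPM. Low Xist here was fixed by the class definition, which left out clusters at 50 CPM or more. Krt19, which is among the ductal markers, also defined the vimentin-high and keratin-high classes, so these values are no independent check of the names. Summed fibroblast markers were 474 to 1362 CPM in vimentin-high cells. In the fibroblast-like class they were 16316 to 20724 CPM in PH, G and GPH but 3921 CPM in control, where Cdkn2a was at 494 CPM and Xist at 76.8 CPM. The fibroblast-like control cells therefore go against their name in part, and that class is used for levels in the other libraries only. Summed CPM of Y-linked genes in vimentin-high cells was 0.0768 in control and 0.476 in PH, with 8.53 in G and 11.7 in GPH, and its part in the results was not tested.

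The letters ACGTG form the core that HIF is known to bind, so they were looked for in the 250 bases before each RefSeq transcription start (GRCm38.p6). On either strand, with CACGTG counted on both, they occurred in 20 of 47 windows of the members (42.6%) and in 16.6% of all 32851 windows. By gene this was 17 of 31 members against 18.5% of 27025 genes, and it held for 10 of 19 glycolysis genes and 7 of the 12 oxygen-sensing targets with an entry. The related letters GCGTG occurred in 53.2% of member windows and in 28.2% of all windows. Many members are known as HIF targets and were listed for that reason, so these shares describe the list. Angptl4 and Ndrg1 had no entry.

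A window could be printed only if it had such a match and touched no annotated exon, which 9 members met. Those of 5 genes are printed 5′ to 3′ along the gene, with ACGTG or its reverse complement CACGT in capitals. Each therefore has a match by selection. Gapdh and Higd1a had no match in their windows, while Egln1, Ankrd37 and Vegfa had it only in windows that touch exons. The other listed Ldha start and the first listed Aldoa start had none. The Hk2 window lies at chr6:82774455-82774704 on the minus strand, with matches that begin 226 and 52 bases before the start. The Aldoa window, at the second of 3 listed starts, lies at chr7:126799255-126799504 on the minus strand and has 1 match, at 126 bases. The Pgk1 window (chrX:106186850-106187099, plus strand) has matches at 150 and 131 bases, and the P4ha1 window (chr10:59323046-59323295, plus strand) 1 match at 16 bases. The Ldha window (chr7:46845554-46845803, plus strand) has 5 matches, the first listed at 145 bases, of which overlapping pairs form the 2 stretches CACGTG. A match in these letters does not show binding.
Hk2: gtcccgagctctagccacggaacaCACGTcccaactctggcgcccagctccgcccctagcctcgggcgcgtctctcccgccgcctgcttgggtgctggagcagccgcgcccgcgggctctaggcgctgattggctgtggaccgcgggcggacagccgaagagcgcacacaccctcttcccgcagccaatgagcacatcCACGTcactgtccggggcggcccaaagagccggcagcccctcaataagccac
Aldoa: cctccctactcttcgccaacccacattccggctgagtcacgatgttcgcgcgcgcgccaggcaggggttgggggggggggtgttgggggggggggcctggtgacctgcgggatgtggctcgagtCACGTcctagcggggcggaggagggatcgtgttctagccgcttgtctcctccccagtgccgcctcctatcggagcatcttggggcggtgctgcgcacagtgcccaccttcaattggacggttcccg
Pgk1: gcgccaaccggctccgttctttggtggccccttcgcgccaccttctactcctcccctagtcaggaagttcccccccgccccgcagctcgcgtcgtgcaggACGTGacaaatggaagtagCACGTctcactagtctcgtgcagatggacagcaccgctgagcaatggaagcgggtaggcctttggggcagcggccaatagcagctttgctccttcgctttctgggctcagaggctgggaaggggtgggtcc
Ldha: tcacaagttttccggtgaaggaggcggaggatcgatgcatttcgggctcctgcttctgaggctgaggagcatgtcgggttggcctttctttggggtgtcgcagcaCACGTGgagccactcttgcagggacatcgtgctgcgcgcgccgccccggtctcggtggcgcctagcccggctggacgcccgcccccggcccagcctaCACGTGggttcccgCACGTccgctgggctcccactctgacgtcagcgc
P4ha1: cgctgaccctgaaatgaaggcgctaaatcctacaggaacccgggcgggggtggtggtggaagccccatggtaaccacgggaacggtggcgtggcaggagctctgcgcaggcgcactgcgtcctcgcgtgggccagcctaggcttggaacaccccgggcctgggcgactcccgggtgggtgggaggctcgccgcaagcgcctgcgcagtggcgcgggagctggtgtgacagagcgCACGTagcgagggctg

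Before any difference between treatments, the genes differed in level between cell classes. UMI counts were not scaled by transcript length and capture differs between genes, so each gene is compared with itself across classes, and a family member's share of UMIs is compared between classes. In the G library, where 5 classes had at least 100 cells, 7 of the 19 glycolysis genes had their highest CPM in vimentin-high cells, 4 in macrophages, 3 in keratin-high cells, 3 in neutrophils and 2 in T cells. Of the 14 oxygen-sensing targets, 4 were highest in vimentin-high cells, 4 in neutrophils, 3 in keratin-high cells and 3 in T cells. The T cell count includes Adm, at 0.411 CPM there and 125 CPM in the smaller fibroblast-like class, and Egln1, whose interval overlapped that of macrophages. For Hk1, Pfkp, Aldoa, Eno1, Pkm, Pfkfb4 and Pdk1 the intervals of the highest and second class also overlapped. Hk2, P4ha1 and P4ha2 were higher still in fibroblast-like cells, with overlapping intervals for Hk2 and P4ha1. How all genes divide between the classes was not counted. Aldoa, the aldolase of glycolysis, differed little, with 468 CPM in fibroblast-like cells, 479.8 in keratin-high cells, 489.6 in neutrophils, 497 in T cells, 529.6 in vimentin-high cells and 533 in macrophages.

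**Figure D1:**
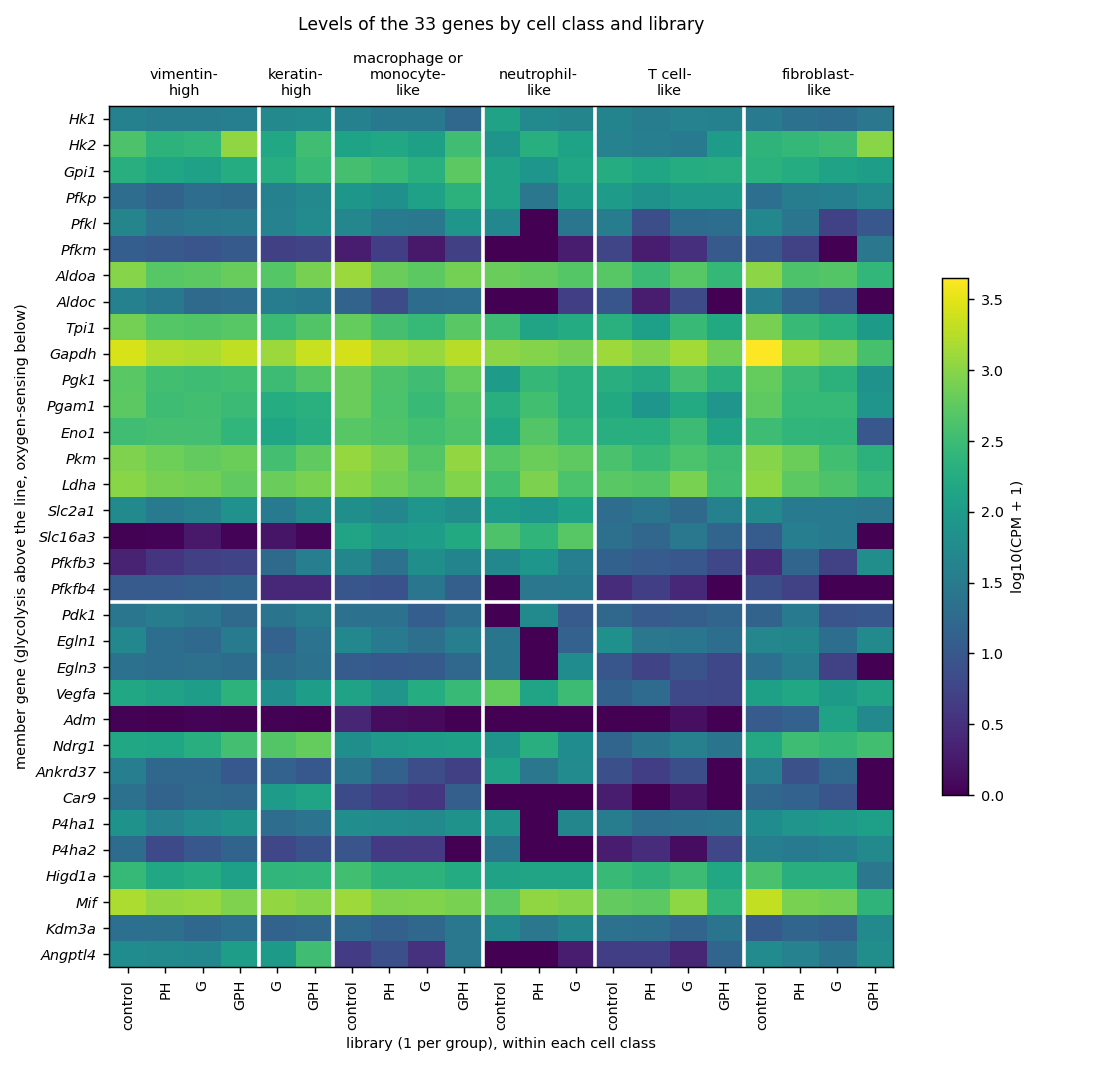
Level of the 33 genes as log10(CPM + 1) in each cell class and library (columns), with glycolysis genes above and oxygen-sensing targets beneath. Gapdh is high in every column, whereas Slc16a3 is near 0 in vimentin-high and keratin-high cells and reaches 511 CPM in G neutrophils.

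Monocarboxylate carriers export lactate. Slc16a3, which encodes the carrier MCT4, was at 511 CPM in neutrophils, 107 CPM in macrophages and 28.2 CPM in T cells of the G library, against 0.769 CPM in vimentin-high and 0.605 CPM in keratin-high cells. After thinning each cell to 2000 UMIs, 51.7% of 89 G neutrophils (40.8% to 62.4%) had a Slc16a3 UMI, as did 0.0772% of 1296 keratin-high cells. The unthinned shares were 37.6% and 1.82%, and 745 shallower neutrophils were left out. Slc16a3 was thus near 0 in the vimentin-high and keratin-high classes and read mainly in myeloid cells. Its relative Slc16a1 supplied 96.8% (95.3% to 98.0%) of the carrier UMIs in vimentin-high and 98.1% in keratin-high cells, whereas Slc16a3 supplied 82.2% in macrophages and 99.5% in neutrophils.

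Hexokinases phosphorylate glucose. Hk2 supplied 88.4% of hexokinase UMIs in vimentin-high cells and 74.1% in keratin-high cells of the G library. The share was 61.4% in macrophages, where Hk3 supplied 23.5%, and 43.6% in T cells, where Hk1 supplied 55.5%. Phosphofructokinase, the committed step, also differed in isoform. Pfkl supplied 51.2% of its UMIs in vimentin-high and 48.3% in keratin-high cells, and Pfkp 80.9% in macrophages, 77.7% in neutrophils and 81.6% in T cells. Slc2a1, the basal glucose carrier, supplied 98.3% to 99.5% of glucose carrier UMIs in vimentin-high, keratin-high and macrophage-like cells, while Slc2a3 supplied 57.6% in neutrophils and 49.2% in T cells.

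**Figure D2:**
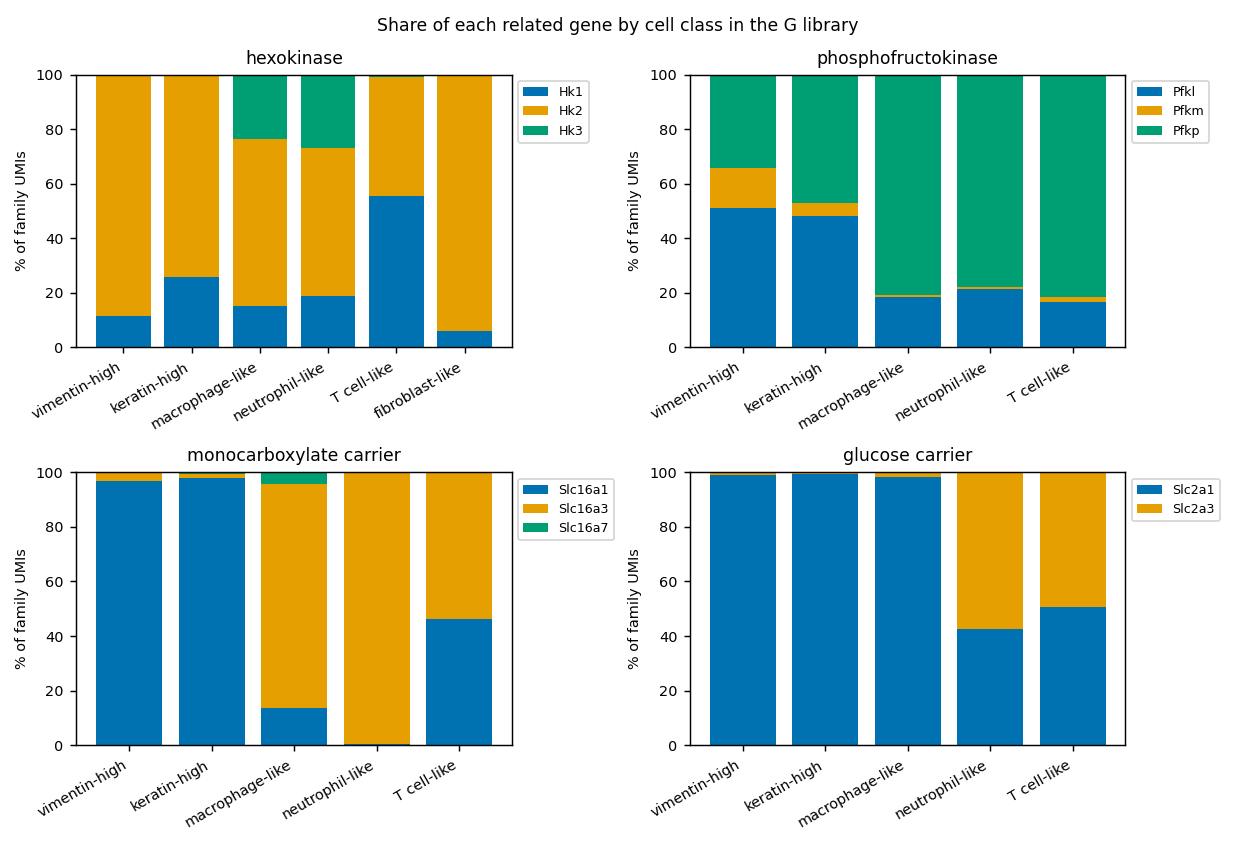
Share of each family's UMIs (percent) supplied by each gene in the cell classes of the G library, for hexokinases, phosphofructokinases, monocarboxylate carriers and glucose carriers. The carrier bars pass from Slc16a1 in vimentin-high (96.8%) and keratin-high cells (98.1%) to Slc16a3 in neutrophils (99.5%).

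The regulators Pfkfb3 and Pfkfb4 make the activator of phosphofructokinase. Pfkfb4 supplied 69.4% to 80.8% of their family's UMIs in vimentin-high cells over the 4 libraries. Pfkfb3 supplied 82.1% in keratin-high cells of G and 89.5% in those of GPH, and 70.8% in G macrophages. Enolase UMIs of vimentin-high cells came from Eno1 (46.3% to 56.5%) and from the muscle enolase Eno3 (41.7% to 52.6%), while Eno3 supplied 8.86% in keratin-high cells of G and 6.41% in those of GPH. Eno1 and Gapdh have near-identical copies in the genome, so how their reads were divided is uncertain.

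Oxygen-sensing targets were also spread unevenly. In the G library Vegfa was at 320.1 CPM in neutrophils, 182 in macrophages and 109 in vimentin-high cells, and at 5.34 CPM in T cells. Car9, a membrane carbonic anhydrase, was at 100.0 CPM in keratin-high and 17.2 CPM in vimentin-high cells, with 0 UMIs in 834 neutrophils. Ndrg1, a stress-responsive gene, was at 469 CPM in keratin-high and 191 CPM in vimentin-high cells. Egln3 and Ankrd37 were highest in neutrophils, at 59.3 and 57.4 CPM. Adm, which encodes the vasodilator adrenomedullin, had 6, 2, 2 and 1 UMIs in vimentin-high cells of control, PH, G and GPH, too few for a comparison. In fibroblast-like cells Adm reached 125 CPM in G, from 31 UMIs.

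PH against control in vimentin-high cells compares the library of the drug pair without chemotherapy with that of PBS. Hk2, Pfkl, Aldoa, Tpi1, Gapdh and Pgam1, spread over the chain, were lower in PH, and no measured glycolysis gene was higher by 1.5-fold. Hk2 was at 427 CPM in control and 229 in PH, 1.87-fold lower (1.84 to 1.89). Aldoa was at 963 and 505 CPM, 1.91-fold lower (1.89 to 1.93), and Gapdh, the dehydrogenase of the payoff phase, at 2722 and 1685 CPM, 1.62-fold lower (1.61 to 1.62). Pfkl, the liver-type phosphofructokinase, was at 45.5 and 23.4 CPM, 1.94-fold lower (1.85 to 2.03). Each of the 4 intervals lay wholly past 1.5-fold.

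Of the 19 glycolysis genes, 14 had at least 20 CPM on average and 20 UMIs over both libraries, and 7 of these were at least 1.5-fold lower, against 7.59% of the 4282 genes measured. None was 1.5-fold higher, against 7.01% of those genes. The 14 had a median log2 ratio of -0.62, with 0.00 for all measured genes. With median-of-ratios scaling the counts were again 7 and 0, against 7.73% lower and 6.84% higher. The glucose carrier Slc2a1 was at 52.3 and 32.6 CPM, 1.61-fold lower (1.54 to 1.67), and Tpi1 and Pgam1 were 1.57-fold and 1.66-fold lower. The end of the chain differed less: Pkm, pyruvate kinase, was at 869 and 701 CPM and Ldha at 1010.4 and 800.1 CPM. Eno1 was at 339.9 CPM in control and 374 in PH.

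Oxygen-sensing targets were divided. Of 11 measured of 14, 4 were 1.5-fold lower and none higher, against 7.59% lower and 7.01% higher of all measured genes. Their median log2 ratio was -0.26, with 0.00 for all measured genes. Egln1, the main oxygen sensor that marks HIF, was at 49.7 CPM in control and 19.8 in PH, 2.52-fold lower (2.40 to 2.64). Ankrd37, a HIF target of little known function, was at 35.2 and 15.4 CPM, 2.28-fold lower (2.16 to 2.41). Higd1a, a mitochondrial hypoxia protein, was at 279.6 and 146 CPM, 1.91-fold lower (1.88 to 1.95), and P4ha1, a collagen prolyl hydroxylase subunit, at 70.7 and 40.4 CPM, 1.75-fold lower (1.69 to 1.81). Others were close to control: Vegfa was at 149.7 and 125 CPM, Ndrg1 at 154 and 139.9, Angptl4 at 58.0 and 55.6 and Kdm3a at 20.6 and 21.0. Pdk1, a kinase that inhibits pyruvate dehydrogenase, was at 26.0 CPM in control and 33.03 in PH. Egln1 supplied 54.7% of prolyl hydroxylase UMIs in control and 37.3% in PH, and Egln3 24.7% and 38.0%.

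**Figure D3:**
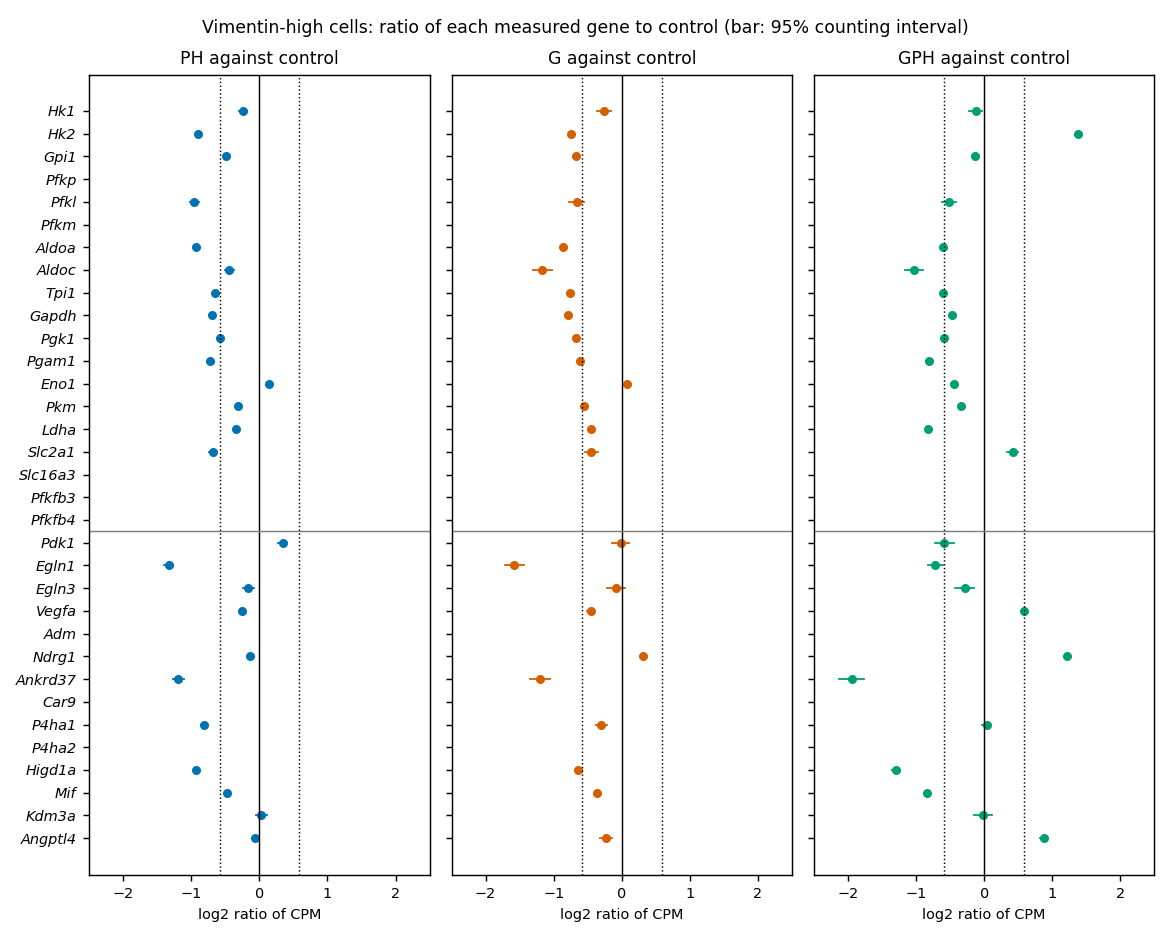
Log2 ratio of CPM in vimentin-high cells for PH, G and GPH (panels) against the one control library, per measured gene. Bars are 95% counting intervals and dotted lines mark 1.5-fold; Egln1, Ankrd37, Higd1a and Aldoa lie left of the line in every panel, and Hk2 lies left in PH and G and right in GPH.

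The vimentin-high class joins 6 clusters whose shares differ between libraries. Hk2, Pfkl, Aldoa, Egln1, Ankrd37, P4ha1 and P4ha2 were at least 1.5-fold lower in PH than in control within each of the 6 clusters. The log2 ratio ran from -1.25 to -0.85 for Hk2, from -1.26 to -0.72 for Aldoa and from -1.85 to -0.79 for Egln1. Higd1a and Pgam1 were 1.5-fold lower in 5 of the 6, and Gapdh, Tpi1 and Slc2a1 in 4 of the 6. Each of these 5 genes was below control in the remaining clusters too, by less than 1.5-fold.

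G against control compares the library of chemotherapy alone with that of PBS. Vimentin-high cells of the G library also had lower glycolytic levels, with 9 of 14 measured glycolysis genes at least 1.5-fold lower, against 5.44% of 4226 measured genes, and none higher, against 4.47%. The median log2 ratio of the 14 was -0.66. With median-of-ratios scaling 8 were lower, against 4.71% lower and 5.3% higher of all genes. Gapdh was at 1580.1 CPM in G, 1.72-fold lower than control (1.71 to 1.74), Aldoa at 529.6 CPM, 1.82-fold lower (1.79 to 1.85), and Hk2 at 255 CPM, 1.67-fold lower (1.63 to 1.72). Aldoc, the brain-type aldolase, was at 17.2 CPM against 38.6, 2.25-fold lower (2.04 to 2.48). Ldha was at 741 CPM and Slc2a1 at 38.4 CPM, each within 1.5-fold of control.

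Among 10 measured oxygen-sensing targets, 3 were 1.5-fold lower in G and none higher, against 5.44% lower and 4.47% higher of all measured genes. Their median log2 ratio was -0.34, with -0.03 for all measured genes. Egln1 was at 16.7 CPM, 2.99-fold lower than control (2.71 to 3.29), Ankrd37 at 15.4 CPM, 2.29-fold lower (2.07 to 2.54), and Higd1a at 178 CPM, 1.57-fold lower. Ndrg1 was at 191 CPM in G against 154 in control, and Vegfa at 109 against 149.7. Within the 5 clusters compared, Hk2, Aldoa, Aldoc, Tpi1, Egln1 and Ankrd37 were 1.5-fold lower in 4, Gapdh in 3, Pfkl, Pgk1 and Pgam1 in 2, and Gpi1 and Higd1a in 1 (Higd1a log2 -0.82 to 0.29). Vegfa, within 1.5-fold over the class, was also lower by that much in 3 of the 5. So were P4ha2 and Kdm3a, which averaged under 20 CPM over the class and were not measured there. The Vegfa log2 ratio ran from -0.98 to 0.12, and P4ha2 was 1.5-fold higher in 1 cluster. Hk1, Pkm and Slc2a1 were 1.5-fold lower in 2. PH and G are set against the same control library, so its own departures enter both comparisons. A set of 16 genes known to respond to tissue dissociation summed to 9192 CPM in control and 7905 in PH, with 5355 in G and 10627 in GPH vimentin-high cells, and its part in these differences was not tested.

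In the triple combination, GPH against control, the genes differed in both directions. Hk2 was at 427 CPM in control and 229 in PH, with 255 in G and 1108 in GPH, 2.60-fold higher in GPH than in control (2.56 to 2.63). Ndrg1 was at 358 CPM in GPH, 2.32-fold higher (2.27 to 2.38), Angptl4, a secreted lipase inhibitor, at 107 CPM, 1.84-fold higher (1.76 to 1.92), and Vegfa at 225 CPM, 1.50-fold higher (1.46 to 1.55). For these genes GPH had the highest level of the 4 libraries.

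In the same cells Aldoa, Aldoc, Tpi1, Pgk1, Pgam1 and Ldha were lower than in control by 1.5-fold or more, and Gapdh, Eno1 and Pkm were not. Ldha was at 572 CPM, 1.76-fold lower than control (1.74 to 1.79), Pgam1 at 306 CPM, 1.76-fold lower, Aldoa at 632 CPM, 1.52-fold lower, and Tpi1 at 499.5 CPM, 1.52-fold lower. Higd1a was at 113 CPM, 2.46-fold lower (2.38 to 2.56), Mif, a cytokine and HIF target, at 878 CPM against 1576, 1.80-fold lower, and Ankrd37 at 9.16 CPM, 3.84-fold lower (3.38 to 4.38). Egln1 was at 30.3 CPM, 1.64-fold lower (1.53 to 1.77). Hk2 therefore supplied 96.8% of hexokinase UMIs in GPH against 91.5% in control. Over the class, each glycolysis enzyme from Gpi1 to Ldha had a lower CPM in GPH than in control. Within the 4 clusters compared this did not hold throughout. Gpi1, Gapdh and Eno1 were lower in 2, Pgk1, Pkm and Ldha in 3, and Pfkp in 1. Pfkl, Pfkm, Aldoa, Aldoc, Tpi1 and Pgam1 were lower in all 4. In cluster 3 Gapdh was at 1912 CPM in control and 2275 in GPH.

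By count, 1 of 14 measured glycolysis genes was 1.5-fold higher in GPH than in control and 6 were lower, against 20.3% higher and 9.04% lower of 4535 measured genes. Of 11 measured oxygen-sensing targets, 3 were higher and 4 lower. Median log2 ratios were -0.49 and -0.28, against 0.13 for all measured genes. The background depends on scaling: with median-of-ratios size factors, 14.1% of genes were higher and 14.5% lower, and the lists had 1 higher and 8 lower, and 2 higher and 5 lower, with medians of -0.62 and -0.42. GPH cells were also the deepest, at a median of 15367.5 UMIs against 11373 in control. After thinning to 2000 UMIs, an Hk2 UMI was found in 46.9% of the control vimentin-high cells, 32.9% in PH, 39.1% in G, but 76.5% in GPH.

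Cluster membership bears on part of this. Cluster 0 carried 5 of the fibroblast markers, with Acta2, Dcn and Dpt among its leading genes, but had Xist at 4.13 CPM and was kept in the class. It held 925 of 1426 GPH but 2435 of 7840 control vimentin-high cells. Summed fibroblast markers of the whole class were 724.5 CPM in control and 1362 in GPH, and without cluster 0 the GPH-to-control ratio of Hk2 was 1.06 on the log2 scale. Hk2 in cluster 0 was at 640 CPM in control and 338 in PH, with 497 in G and 1361 in GPH. Within the 4 clusters with at least 50 cells in both libraries, the GPH to control log2 ratio of Hk2 ran from -0.05 to 1.09 and reached 1.5-fold in cluster 0 alone. In cluster 7 Hk2 was at 163 CPM in control and 158 in GPH. With clusters given equal weight, the log2 ratio was 0.53 for Hk2, which is under 1.5-fold, 0.62 for Ndrg1 and 0.17 for Vegfa, and 1 glycolysis gene was 1.5-fold lower instead of 6. Vegfa reached 1.5-fold in none of the 4, Ndrg1 in 2 and Angptl4 in 3, whereas Ankrd37 was 1.5-fold lower in each of the 4 (log2 -1.81 to -1.30), as was Aldoc. Egln1 was 1.5-fold lower in none (log2 -0.51 to -0.05; -0.24 with equal weights), nor was Tpi1 or Pgk1. Aldoa was lower by that much in 1 cluster, and Ldha, Pgam1, Mif and Higd1a were in 2. The same weighting gave 5 lower glycolysis genes in place of 9 for G against control. The excess of Hk2 over control was thus uneven between clusters, and that of Vegfa was not present at 1.5-fold within them.

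**Figure D4:**
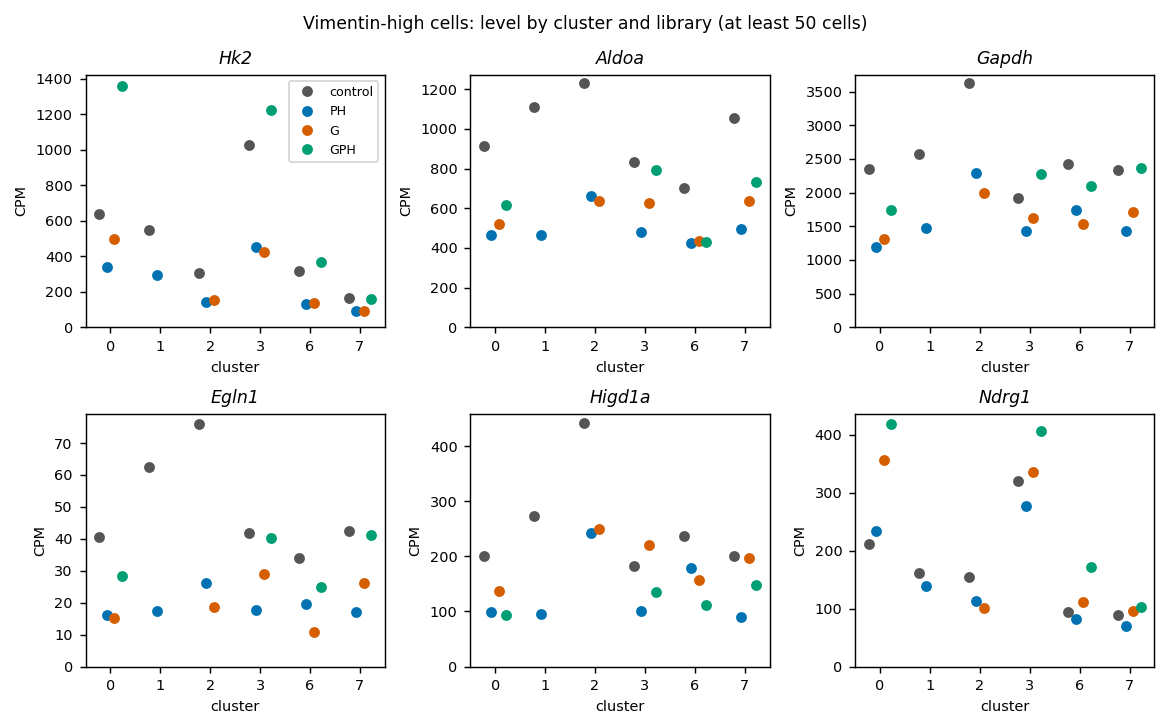
CPM of Hk2, Aldoa, Gapdh, Egln1, Higd1a and Ndrg1 in the 6 clusters of the vimentin-high class, by library, where a library had at least 50 cells. Hk2 in cluster 0 is at 338 CPM in PH and 1361 CPM in GPH, while in cluster 7 control (163 CPM) and GPH (158 CPM) lie together.

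GPH was also compared with each of its components. Against G, Hk2 was 4.35-fold higher (4.24 to 4.46), and it was at least 1.5-fold higher within each of the 4 clusters compared (log2 0.76 to 1.53). Slc2a1 was at 69.8 CPM in GPH against 38.4 in G, 1.82-fold higher (1.69 to 1.96), Vegfa 2.07-fold higher (1.98 to 2.16), Angptl4 2.16-fold higher (2.02 to 2.30), and Egln1 1.82-fold higher (1.62 to 2.04). Ndrg1 had a log2 ratio of 0.90 and reached 1.5-fold within 1 of the 4 clusters. Higd1a was 1.57-fold lower. Within clusters the Slc2a1 ratio ran from -0.67 to 0.41 on the log2 scale and reached 1.5-fold higher in none, whereas Egln1 and Angptl4 did in 3 of 4 and Vegfa in 2 of 4. In all, 2 of 13 measured glycolysis genes and 4 of 8 oxygen-sensing targets were higher and 0 and 1 lower, against 18.9% higher and 6.84% lower of all genes. Median log2 ratios were 0.15 and 0.60, against 0.19 for all genes. With median-of-ratios scaling the background was 10.4% higher and 12% lower, and the lists had 2 higher and 1 lower, and 4 higher and 3 lower, with medians of -0.04 and 0.41.

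Against PH, Hk2 was 4.85-fold higher in GPH (4.77 to 4.92), Ndrg1 2.56-fold, Slc2a1 2.14-fold, Angptl4 1.92-fold, Vegfa 1.80-fold and P4ha1 1.79-fold higher. Within clusters Hk2 reached 1.5-fold in 4 of 4, Angptl4 and P4ha1 in 3, Ndrg1 in 2, and Slc2a1 (log2 -0.38 to 1.31) and Vegfa in 1. Without cluster 0 the Slc2a1 ratio of the class was 0.55 on the log2 scale, under 1.5-fold. Pdk1 was at 33.03 CPM in PH and 17.4 in GPH, 1.90-fold lower (1.73 to 2.10). Egln1 had a log2 ratio of 0.61 and was 1.5-fold higher within 3 of 4 clusters. Aldoc had -0.59 and was 1.5-fold lower within 1. The counts were 2 higher and 1 lower of 14 glycolysis genes, and 5 higher and 1 lower of 9 oxygen-sensing targets, against 16.8% higher and 6.35% lower of all genes, with medians of 0.08 and 0.61. Under median-of-ratios scaling these became 2 and 2, and 4 and 1, against 13.2% higher and 9.26% lower, with medians of -0.02 and 0.52. The sign of the glycolysis median in both comparisons thus changed with the scaling. Dissociation genes differed in the same direction, with 13 of 15 measured higher against G and 9 of 15 higher against PH. Their part in the GPH values was not tested.

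Genes near the limit of detection in vimentin-high cells are given by level. Pfkp was at 13.6 to 19.2 CPM, Pfkm at 8.24 to 11.2 and Pfkfb4 at 10.1 to 14.2 CPM over the 4 libraries. Pfkfb3 was at 1.25 CPM in control and 2.495 in PH, with 3.95 in G and 4.61 in GPH, from 146, 320, 108 and 127 UMIs, under the level filter. Its level was lowest in control, and it was 1.5-fold higher than control within 4 of 6 clusters in PH, 4 of 4 in G and 3 of 3 in GPH. Car9 was at 22.0 CPM in control and 13.5 in PH, with 17.2 in G and 16.2 in GPH. P4ha2, the other collagen hydroxylase subunit, was at 18.8, 5.37, 8.90 and 13.8 CPM. Slc16a3 had 6, 13, 21 and 2 UMIs.

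Keratin-high cells allow GPH to be compared with G alone, without a control. Glycolytic levels were higher in GPH over most of the chain. Hk2 was at 147 CPM in G and 339 in GPH, 2.31-fold higher (2.24 to 2.37), Gapdh at 1281 and 2203 CPM, 1.72-fold higher (1.70 to 1.74), and Aldoa at 479.8 and 786 CPM, 1.64-fold higher (1.61 to 1.66). Slc2a1 was at 30.5 and 55.3 CPM, 1.81-fold higher (1.71 to 1.93), and Pfkfb3, which speeds phosphofructokinase, at 17.3 and 35.1 CPM, 2.03-fold higher (1.87 to 2.20). Ldha was at 664 and 817 CPM, 1.23-fold higher. With median-of-ratios scaling Gapdh and Aldoa had log2 ratios of 0.56 and 0.49, both under 1.5-fold. Pkm had a log2 ratio of 0.67 and went down to 0.44 among the alternatives. The summed glycolysis genes stood at 4291 CPM in G and 6633 in GPH.

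In number, 9 of 16 measured glycolysis genes were 1.5-fold higher and none lower, against 17.2% higher and 3.23% lower of 4525 measured genes, with a median log2 ratio of 0.59 against 0.22 for all genes. Median-of-ratios scaling left 3 higher and a median of 0.36, with 7.91% of all genes higher and 8.24% lower. Of 9 measured oxygen-sensing targets, 2 were higher and none lower. Angptl4 was at 97.4 CPM in G and 341 in GPH, 3.50-fold higher (3.39 to 3.61), and Vegfa at 60.3 and 106 CPM, 1.76-fold higher (1.68 to 1.84). Car9 was at 100.0 and 136 CPM, 1.36-fold higher (1.32 to 1.41), Ndrg1 at 469 and 615 CPM, 1.31-fold higher, and Mif at 1137 and 985 CPM. Pdk1 and Egln3 had log2 ratios of 0.43 and 0.24, both under 1.5-fold. After thinning, 14.0% of G and 37.8% of GPH cells had an Angptl4 UMI, and 25.8% and 41.3% an Hk2 UMI. Dissociation genes summed to 3974 CPM in G and 7073 in GPH, and Nmt1 was at 26.3 and 103 CPM; their part in this comparison was not tested.

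**Figure D5:**
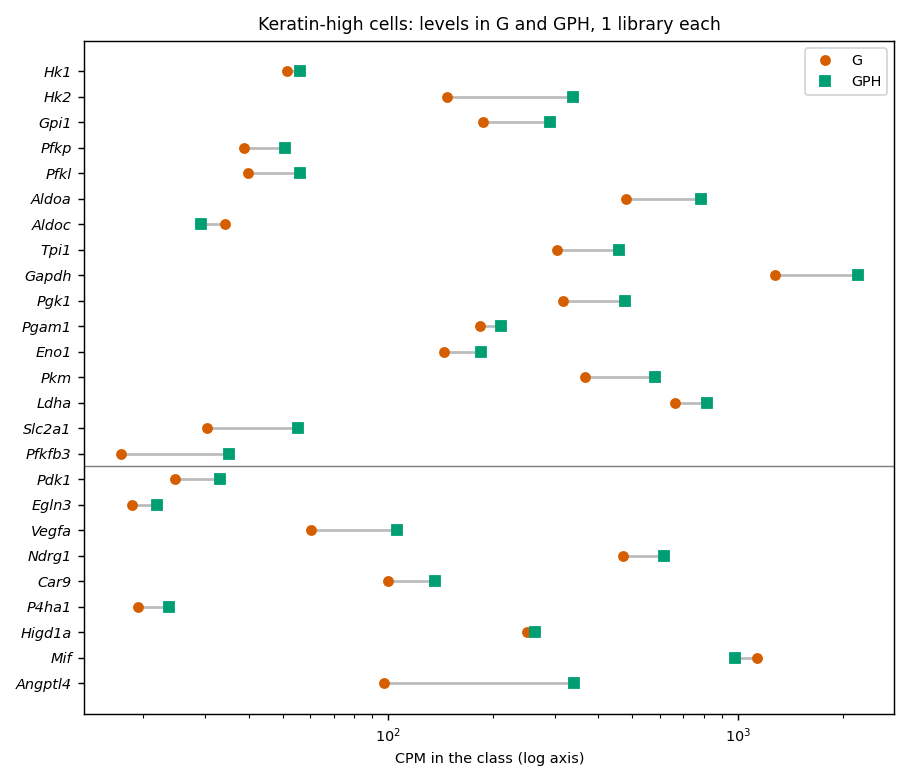
CPM (log axis) of the 25 measured genes in keratin-high cells of the G (circles) and GPH (squares) libraries. Squares lie right of circles for most glycolysis genes, with Angptl4 the widest gap, from 97.4 to 341 CPM.

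Macrophage or monocyte-like cells gave lower glycolytic levels in PH and in G than in control. Aldoa was at 1263 CPM in control and 644 in PH, with 533 in G and 767 in the 46 GPH cells. It was 1.96-fold lower in PH (1.85 to 2.08) and 2.37-fold lower in G (2.26 to 2.49). Gapdh was at 2574, 1495, 1231 and 1820 CPM, 1.72-fold lower in PH (1.66 to 1.79) and 2.09-fold lower in G (2.02 to 2.16). Pkm was at 1186, 862, 473 and 1135 CPM, 2.51-fold lower in G (2.39 to 2.64). Control was the highest library for these 3 genes, although for Pkm its counting interval (1140.2 to 1234) overlapped that of GPH. Log2 ratios in PH were -1.05 for Pfkfb3, -0.75 for Tpi1, -0.68 for Pgam1, -0.63 for Pgk1 and -0.62 for Higd1a. Pgk1 stayed past 1.5-fold in 5 of 8 alternatives, Tpi1 and Higd1a in 7, and Pfkfb3 and Pgam1 in all 8. In G they were -1.18 for Pgam1, -1.15 for Tpi1, -0.98 for Pgk1 and -0.86 for Ldha.

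Against control, 6 of 16 measured glycolysis genes were 1.5-fold lower in PH and none higher, against 10.9% lower and 12.1% higher of 4575 measured genes. In G, 9 of 16 were lower and none higher, against 19.4% lower and 16.5% higher of 4556 genes. Medians were -0.49 in PH and -0.83 in G. The counts were the same with median-of-ratios scaling, against 9.64% lower and 13.4% higher in PH and 16.4% lower and 19.1% higher in G. Of the oxygen-sensing targets, 3 of 7 were lower in PH, and 2 of 6 were lower and 1 higher in G. Egln1 was at 49.5 CPM in control, 30.7 in PH and 21.4 in G, 1.61-fold (1.21 to 2.15) and 2.31-fold lower (1.80 to 2.95). Vegfa was at 128, 79.3 and 182 CPM, 1.61-fold lower in PH (1.35 to 1.93). Ndrg1 was at 65.2, 90.8 and 109 CPM, 1.67-fold higher in G (1.39 to 2.01). With doublets kept, the log2 ratios were 0.15 for Ndrg1 in G and -0.29 for Vegfa in PH, both under 1.5-fold.

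Hk2 in macrophages was at 128 CPM in control and 150.2 in PH, with 119 in G and 344 in GPH, each of PH and G within 1.5-fold of control. This depended on how cells were chosen: among the alternatives the log2 ratio of Hk2 went down to -0.95 in PH (per-cell gates) and -1.13 in G (doublets kept). Gapdh in PH went to -0.42 with per-cell gates, under 1.5-fold. Cdkn2a was at 99.9 CPM in control and 101 in PH macrophages, against 9.74 in G and 27.7 in GPH. This transcript, read mainly in vimentin-high cells, differed in macrophages in the same direction as the glycolysis genes did between control and G, and its part in that comparison was not tested. Dissociation genes summed to 6070 CPM in control and 6893 in PH, with 5736 in G and 10384 in GPH macrophages.

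T cell-like cells had 4 of 14 measured glycolysis genes lower in PH than in control and none higher, against 12.7% lower and 7.57% higher of 4557 measured genes. With median-of-ratios scaling the background was 9.3% lower and 9.77% higher, and the count of lower glycolysis genes was again 4. Aldoa was at 507 and 310.1 CPM, 1.64-fold lower (1.42 to 1.88), and Pgam1 at 167 and 83.1 CPM, 2.004-fold lower (1.54 to 2.62). Pfkl was at 33.5 and 6.54 CPM, 5.12-fold lower with a wide interval (2.24 to 13.7). With per-cell gates the log2 ratios were -0.53 for Pfkl and -0.50 for Pgam1, both under 1.5-fold. Tpi1 and P4ha1 were also lower, with log2 ratios of -0.86 and -0.81. Among the alternatives these rose as far as -0.27 and -0.57, under 1.5-fold. Egln1 was at 66.0 CPM in control, 27.1 in PH and 26.1 in G, 2.44-fold (1.56 to 3.90) and 2.53-fold lower (1.93 to 3.28). Egln1 was thus lower than control in PH and G in each of the 3 cell classes where both could be compared.

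G against control in T cells gave no clear direction. Of 14 glycolysis genes 3 were higher and 1 lower, and of 5 oxygen-sensing targets 2 were higher and 2 lower, against 8.98% higher and 15.6% lower of 4564 genes, or 11.5% and 12.5% with median-of-ratios scaling. Ldha was at 525 CPM in control and 818 in G, Pgk1 at 193 and 360.3 and Mif at 595 and 1075. When cells were gated one by one on markers instead of by cluster, these 3 genes were lower in G, with log2 ratios of -0.24, -0.72 and -0.32. By cluster, log2 ratios were also 1.40 for Ndrg1, 0.69 for Eno1, -0.87 for Pfkl and -0.65 for P4ha1. A cluster led by Tnfrsf4, Ctla4 and Foxp3 held 1231 of 2944 G but 42 of 379 control T cells. Dissociation genes summed to 4688 CPM in control and 2725 in G, with 13 of 16 lower by 1.5-fold, and the part of either was not tested. Hk2 was at 40.2 CPM in control and 35.5 in PH, with 31.4 in G and 98.4 in the 58 GPH cells, from 20 UMIs in the last.

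Neutrophil-like and fibroblast-like cells were too few for differences. Summed glycolysis genes were at 4388 CPM in control, 5078 in PH and 4252 in G neutrophils. Fibroblast-like cells of PH, G and GPH had 4562, 3649 and 2714 CPM. Hk2 in fibroblast-like cells was at 265 CPM in PH, 315 in G and 1011 in GPH, from 185, 78 and 114 UMIs. GPH was the highest library for Hk2 in vimentin-high, macrophage-like and T cell-like cells, and the higher of the 2 in keratin-high cells. In fibroblast-like cells it was the highest of PH, G and GPH, with control set aside. Among vimentin-high clusters the Hk2 excess over control was uneven, with 1361 against 640 CPM in cluster 0 and 158 against 163 CPM in cluster 7. Summed ductal markers were also highest in GPH, at 463 CPM in macrophages against 87.5 in control and at 502 CPM in T cells against 109, and their part in the Hk2 values was not tested.

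Related genes were counted from lists drawn up beside the members. Of 12 HIF subunits and regulators, 5 were measured in vimentin-high cells for PH and for G against control, and none passed 1.5-fold. In GPH against control, 2 of 6 measured were lower, Rbx1 and Elob, and none higher, against 9.04% lower and 20.3% higher of all genes. Against G, 1 of 5 was higher and 2 lower, against 18.9% and 6.84%. Against PH, none of 5 was higher and 1 lower, against 16.8% and 6.35%. With median-of-ratios scaling 2, 3 and 2 were lower, against 14.5%, 12% and 9.26%, and none higher. Hif1a, the oxygen-regulated subunit, was at 253 CPM in control and 224 in PH, with 188 in G and 281 in GPH. Of 27 further hypoxia targets, 13 were measured, with 1 higher and 4 lower in PH, against 7.01% and 7.59% of all measured genes, and 1 higher and 5 lower in G, against 4.47% and 5.44%. Fam162a, a mitochondrial hypoxia gene, was at 551 CPM in control and 250 in PH, with 291 in G and 231 in GPH, and Bnip3, a mitophagy receptor, at 121, 77.7, 60.1 and 36.4 CPM. Tfrc, the transferrin receptor, was at 15.6 CPM in control, 28.5 in PH and 25.4 in G.

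GPH against control gave 2 higher and 2 lower of 12 further hypoxia targets, against 20.3% higher and 9.04% lower of all measured genes. With median-of-ratios scaling 2 were higher and 6 lower, against 14.1% higher and 14.5% lower of all measured genes. Hmox1, the stress-induced heme oxygenase, was at 102 CPM in control and 60.4 in PH, with 138 in G and 606 in GPH, 5.96-fold higher than control. Of 28 further genes of glycolysis and pyruvate metabolism, 5 were measured for PH and 6 for G, and none passed 1.5-fold. Shares of all measured genes were 7.01% higher and 7.59% lower in PH, and 4.47% and 5.44% in G. For GPH, Slc16a1 was higher (17.2 and 30.9 CPM) and Eno3 lower (386 and 224 CPM). In keratin-high cells Bhlhe40, a HIF-induced repressor, was at 149.7 CPM in G and 287 in GPH, while Hmox1 was at 24.9 and 23.7 CPM.

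The same lists were counted in immune cells. In macrophages, 12 of these were measured, with 3 higher and 1 lower in PH, against 12.1% and 10.9% of all measured genes, and 2 higher and 5 lower in G, against 16.5% and 19.4%. Fam162a was at 261 CPM in control, 96.5 in PH and 98.8 in G macrophages, and Hmox1 at 480.4 CPM in control and 178 in G. None of 6 measured HIF subunits and regulators passed 1.5-fold in PH, and 2 were lower in G. In T cells, 2 of 7 measured HIF subunits and regulators were lower in PH and 3 of 8 in G, against 12.7% and 15.6% of all measured genes, and none was higher. Hif1a was at 725 CPM in control, 474 in PH and 448 in G T cells, 1.53-fold and 1.62-fold lower. With median-of-ratios scaling none of the 7 was lower in PH, so the Hif1a call was lost there, and 2 of 8 were lower in G.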

How the data were processed

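Single-cell RNA was measured in 4 libraries of mouse tumour tissue. The authors deposited raw counts of UMIs for each gene in each barcode, with no normalization. Per the submitters' processing notes they were made with Cell Ranger 6.1 on mm10, whereas the file headers name 7.0.1; barcode calling and strand are not given in the sources used here. No deposited barcode had under 500 UMIs. Total counts were 158887422 in control and 190110092 in PH, with 144152432 in G and 143298547 in GPH.

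Cells with at least 500 UMIs, 300 genes and at most 20% mitochondrial UMIs were kept, which left out 15.6%, 12.7%, 15.6% and 41.0% of barcodes for mitochondrial UMIs. Scrublet called 0, 1, 0 and 7 doublets by its automatic threshold and so did not work. The 977, 2056, 1573 and 168 highest-scoring cells were removed instead, at 0.8% per 1000 cells. The libraries were clustered together in scanpy 1.11.5 (2000 variable genes, 30 components, 15 neighbours, Leiden resolution 1) under Python 3.11.15. Clusters were named from at least 3 markers at 50 CPM and 2-fold. The vimentin-high class had Vim of at least 2000 CPM and Krt19 under 1000 CPM, with Ptprc and Xist each under 50 CPM. The keratin-high class had the same limits on Ptprc and Xist. A low-depth vimentin-positive class was kept apart.

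UMIs were summed per class and library. Ratios of CPM carry exact conditional binomial 95% intervals (scipy 1.17.1), and a gene was called past 1.5-fold. The computation was tested on simulated data with known changes. For each of 10 comparisons, the rule named up to 8 measured members past 1.5-fold in each direction, ranked by the interval bound nearest to no change, and in every class Hk2, Gapdh, Ldha, Slc2a1, Pdk1, Vegfa, Adm, Car9, Egln3 and Ankrd37. Not every member so named is printed for every comparison. Other members are given by their levels. Alternatives were other scaling, filters, doublets, mitochondrial limits, gates, thinning to 2000 UMIs and cluster choices. The members, lists and tests were chosen with earlier results of these data known. Genes were placed by the GENCODE vM21 annotation of mm10, and promoter sequences those of RefSeq.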

Additional observations from a re-analysis of the deposited data

Results flagged for a closer look

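Glycolytic genes in G against control had opposite signs in different cell classes, and these differences were not tested. Pgk1 had a log2 ratio of 0.90 in T cells (360.3 against 193 CPM) and -0.98 in macrophages (334 against 657 CPM). Ldha had 0.64 in T cells (818 against 525 CPM) and -0.86 in macrophages (559 against 1015 CPM). Pgk1 also differed between T cells and vimentin-high cells, where its log2 ratio was -0.68 (331 against 528 CPM). Each pair uses the same control and G libraries. With cells gated one by one, the T cell values were -0.72 for Pgk1 and -0.24 for Ldha, so the opposite signs were not present under that choice.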

How the results depend on the processing

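No paired analysis was possible because each group had 1 library and the labels carry no replicate numbers. Of the list medians under the alternatives, 196 stayed within the order interval of the members' ratios around the median and 4 did not. That interval, nominally 95%, treats members as independent and is their full range where few were measured. Staying within it is therefore a weak check. In T cells of G against control, the oxygen-sensing median ran from -0.67 to 0.48 and the glycolysis median from -0.90 to 0.15. Both thus changed sign. With per-cell marker gates, macrophages in PH against control had medians of -0.81 for glycolysis genes and -0.76 for oxygen-sensing targets, and T cells in G against control -0.90 for glycolysis genes. With mitochondrial and ribosomal protein UMIs left out of the totals, T cells in PH against control had -0.0097 for oxygen-sensing targets. In T cells of G against control, per-cell gates gave the opposite sign for 5 genes that had been past 1.5-fold: Eno1 -0.21, Ldha -0.24, Mif -0.32, Ndrg1 -0.23 and Pgk1 -0.72. Gapdh, which had been within 1.5-fold at 0.12, was at -0.98. The causes were not tested.

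Counts of members moved more often: 311 stayed within 1.5 times of the value given and 89 did not, many of them counts of 0 to 2 under another filter. In vimentin-high cells, lower glycolysis genes numbered 7 for PH against control (5 to 9 under the alternatives), 9 for G (4 with per-cell gates, 5 with clusters at equal weight) and 6 for GPH (3 with per-cell gates or thinning, 1 with clusters at equal weight). Lower oxygen-sensing targets numbered 4 for PH (1 to 7), 3 for G (1 to 4) and 4 for GPH (2 to 5). Higher oxygen-sensing targets numbered 4 for GPH against G (2 to 5) and 5 for GPH against PH (2 to 7). The 9 higher glycolysis genes of keratin-high cells became 3 with median-of-ratios scaling, 3 with per-cell gates and 4 with totals without mitochondrial and ribosomal protein UMIs. The 6 lower glycolysis genes of macrophages in PH became 10 with per-cell gates, and the 2 lower oxygen-sensing targets in G became 7 with no filter. In T cells the 4 lower glycolysis genes in PH became 2, and the 1 lower in G became 10, with per-cell gates.

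In vimentin-high cells the glycolysis median stayed between -0.71 and -0.49 for PH against control and between -0.69 and -0.45 for G against control. For GPH against control it ran from -0.62 to -0.23, and for oxygen-sensing targets from -0.47 to 0.03. Depth limits the T cell values most, since a gene at 20 CPM has about 20 UMIs in control T cells.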

Other observations

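A low-depth cluster of vimentin-positive cells, kept out of the classes above, was led by Ero1l, Atf5, Bnip3, Egln1 and Higd1a. It held 384 control, 233 PH, 206 G and 145 GPH cells, with median depths of 1644.5, 2094, 1976 and 1585 UMIs. Gapdh, Aldoa, Egln1, Higd1a and Bnip3 were highest in its control cells, while Angptl4 was at 22.4 CPM in control and 32.6 in GPH. Gapdh was at 5694 CPM in control against 2226 in PH, 2240 in G and 2959 in GPH, Aldoa at 1927 against 662, 745 and 769, and Egln1 at 147 against 27.9, 32.8 and 45.1. Higd1a was at 900.0 CPM against 266, 416 and 198, and Bnip3 at 384 against 121, 113 and 60.1. The summed glycolysis genes were at 14787 CPM in control and 6219 to 7391 in the other libraries. Bnip3, Egln1 and Higd1a helped to define this cluster, and how far its cells were intact was not tested.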
